A study of Homo sapiens with 4 samples.

Results

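The posterior HOXC and HOXD genes are the members of paralog groups 9 to 13 in the HOXC and HOXD clusters. All 10, from HOXC9 to HOXC13 and from HOXD9 to HOXD13, were found by symbol among the 35606 genes of the count table. They were followed in K562, a human leukaemia line with erythroid features, by poly(A)-selected RNA-seq. There were 2 libraries of K562 cells expressing JAZF1-SUZ12 and 2 libraries of mock K562 cells. JAZF1-SUZ12 is a fusion protein found in endometrial stromal sarcoma, in which a piece of JAZF1 replaces the start of SUZ12, a core subunit of Polycomb repressive complex 2 (PRC2). How the fusion was delivered, what the mock cells carry, whether the lines are clones and whether the replicates are separate cultures are not given in the sources used here. The p-values therefore measure only the spread between these libraries.

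HOX proteins are homeodomain transcription factors that specify position along the body axis, and their genes lie in clusters whose order matches the order of their domains. The posterior groups, at the 5′ end of each cluster, pattern the lumbosacral trunk, the distal limb and the urogenital tract. In cells where they are silent, their chromatin typically carries the H3K27me3 mark that PRC2 deposits, and the clusters are classic Polycomb targets. HOX proteins bind DNA with TALE cofactors of the PBX, MEIS and PKNOX families.

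Libraries held between 17261160 and 24423239 estimated counts, and JAZF1-SUZ12 replicate 2 was the deepest. The partner genes checked the labels, since mock libraries held 12 and 27 JAZF1 counts where JAZF1-SUZ12 libraries held 574 and 731, and SUZ12 differed by 1.01 on the log2 scale (edgeR, adjusted p = 1.15e-09). The source label gives uterus, but the 9 erythroid markers together were at 8568 and 8853 CPM (counts scaled by the total of the library) in mock and at 10193 and 10290 CPM in JAZF1-SUZ12 libraries, with 4 called higher and 0 lower (edgeR). The 10 stromal markers together were at 8.03 and 9.83 CPM in mock and at 10.8 and 12.1 CPM in JAZF1-SUZ12 libraries, and 0 of the 3 that were tested were called (edgeR, with 1 at an unadjusted p under 0.05, and 0 called by DESeq2 or limma-voom). LUM was the 1 stromal marker at 0 in every library, while PGR had 99 and 93 counts in mock and 117 and 147 in JAZF1-SUZ12 libraries, and COL1A2 had 65 and 54 against 39 and 114. The 5 epithelial markers together were at 1463 and 1488 CPM in mock and at 1555 and 1567 CPM in JAZF1-SUZ12 libraries. Of these, 4 were tested, with 1 called higher and 1 lower (edgeR). The part of any of these lists in the HOX results was not tested.

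The HOXC cluster spans 117.27 kb of chromosome 12 (GRCh38, 53938765 to 54056030) and the HOXD cluster 98.017 kb of chromosome 2 (176092891 to 176190907), by GENCODE release 29. All members lie on the plus strand in the order 13, 12, 11, 10, 9, and the longest annotated transcript of each has 2 exons. RefSeq promoter windows on GRCh38.p14 matched 4 of the 10 members, HOXD10 to HOXD13. The stretch before the RefSeq start is shown for HOXD13, which rose, and for its neighbours HOXD12 and HOXD11, which had at most 2 counts in any library. Each is written 5′ to 3′ on the plus strand, without any base that lies in a GENCODE exon. Capitals mark every match, on either strand, to the TATA box (TATAAA), the CCAAT box, the GC box (GGGCGG) and a core of the YY1 site (CCATNTT), and overlapping matches run together.
HOXD13, chr2:176092471-176092720: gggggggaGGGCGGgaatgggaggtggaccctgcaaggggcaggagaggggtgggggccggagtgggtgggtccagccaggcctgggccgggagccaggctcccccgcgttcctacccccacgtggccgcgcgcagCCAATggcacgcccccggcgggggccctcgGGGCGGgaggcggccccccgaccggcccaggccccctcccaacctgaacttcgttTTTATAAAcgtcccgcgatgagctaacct
HOXD12, chr2:176099545-176099729: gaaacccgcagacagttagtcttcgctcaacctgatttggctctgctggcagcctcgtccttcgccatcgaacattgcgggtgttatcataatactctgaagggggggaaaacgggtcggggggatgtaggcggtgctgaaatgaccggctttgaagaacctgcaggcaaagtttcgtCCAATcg
HOXD11, chr2:176107030-176107279: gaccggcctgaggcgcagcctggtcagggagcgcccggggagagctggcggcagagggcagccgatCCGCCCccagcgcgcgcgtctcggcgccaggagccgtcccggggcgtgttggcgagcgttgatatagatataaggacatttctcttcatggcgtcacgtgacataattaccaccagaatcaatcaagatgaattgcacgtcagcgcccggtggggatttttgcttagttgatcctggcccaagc

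The HOXD13 window held a TATAAA match that begins 27 bases before the start, overlapping a reverse-strand match, and none of the other 3 windows held one. TATAAA occurred in 10.7% of the 35116 RefSeq promoter windows of the same 250 bases. CCAAT occurred in 32.0% of those windows and in those of HOXD10, HOXD12 and HOXD13. The GC box occurred in 42.6% of all windows and in those of HOXD10, HOXD11 and HOXD13. The YY1 core occurred in 11.6% of all windows and in that of HOXD10. The windows held 21 CpG in HOXD13, 16 in HOXD12 and 23 in each of HOXD11 and HOXD10, against a median of 11 over all windows. This put them at percentiles 69.8, 59.0, 74.2 and 74.2 of those windows. These matches describe the letters in the windows only.

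In JAZF1-SUZ12 libraries 4 posterior genes rose, HOXC12, HOXC13, HOXD9 and HOXD13, and none fell. In bulk RNA, more expressing cells and more RNA per cell cannot be told apart. HOXC12 and HOXC13 were counted in both mock libraries and rose by 3.97-fold and 3.64-fold, whereas HOXD9 and HOXD13 were at or near 0 in mock. HOXC9, the most abundant member, was not called, and HOXC10, HOXC11, HOXD10, HOXD11 and HOXD12 had too few counts to be tested. A gene was called at a Benjamini-Hochberg adjusted p under 0.05 in edgeR's quasi-likelihood test over 14750 genes, and 13.3% of those genes were called higher and 11.4% lower. HOXD9 and HOXD13 passed the filter on low counts only through the JAZF1-SUZ12 libraries, so the 4 calls are not read as a share of the tested members. No member was lower at an unadjusted p under 0.05 (0 with edgeR), and DESeq2 and limma-voom called 0 lower and 4 higher, against backgrounds of 9.19% and 13.3% of genes called higher. Both JAZF1-SUZ12 libraries lay above both mock libraries for these 4 genes and for the untested HOXC11, as they did for 33.8% of all genes tested.

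**Figure D1:**
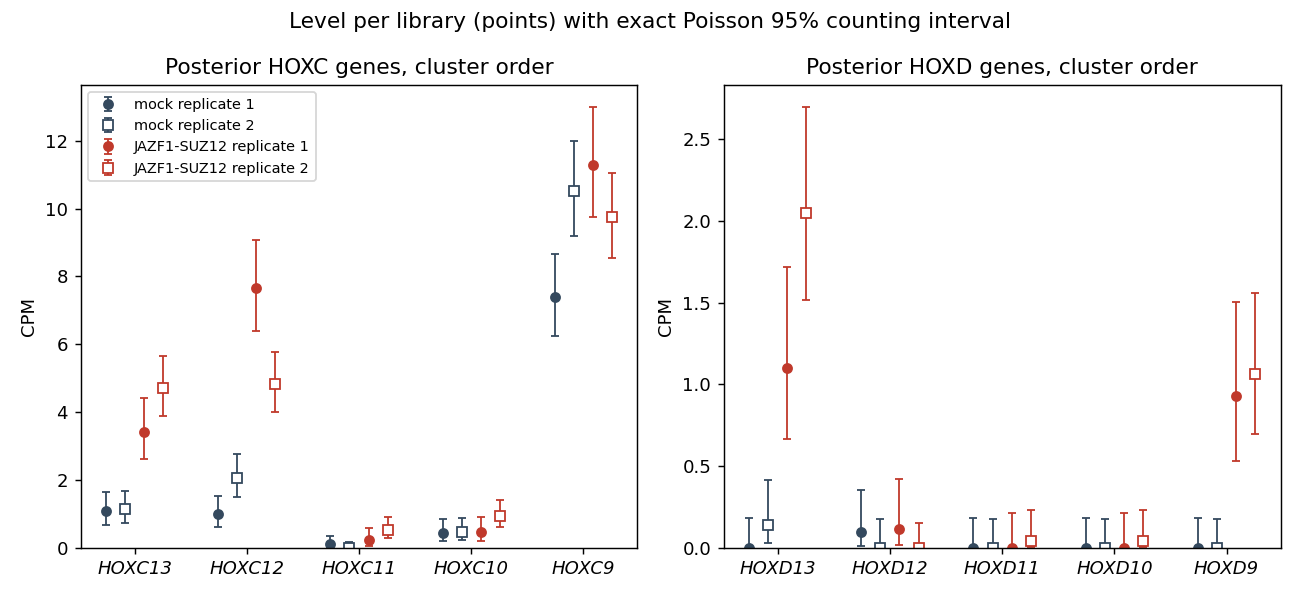
Level in CPM (y axis) of each posterior HOXC gene (left) and HOXD gene (right) in each library, in cluster order on the x axis; points are libraries and bars the exact Poisson 95% counting intervals. HOXC13, HOXC12, HOXD13 and HOXD9 are higher in both JAZF1-SUZ12 libraries than in either mock library, while HOXC9 overlaps between the groups.

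The 5 HOXC members together were at 9.98 and 14.2 CPM in mock and at 23.1 and 20.8 CPM in JAZF1-SUZ12 libraries. The 5 HOXD members together were at 0.0978 and 0.141 CPM in mock and at 2.14 and 3.19 CPM in JAZF1-SUZ12 libraries. Neither sum overlapped between the groups. Posterior HOXD transcripts stayed below posterior HOXC transcripts in every library, and the ratio of the pooled counts, scaled for depth, was 1.79 for HOXC (95% exact counting interval 1.60 to 2.0) and 23.0 for HOXD (9.59 to 72.3). Such intervals cover counting error only.

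HOXC13, which is known for its role in hair and nail formation, lies at the 5′ end of its cluster (ENSG00000123364; chromosome 12, 53938765 to 53946544). It had 22 and 24 counts in mock and 59 and 115 in JAZF1-SUZ12 libraries, or 1.08 and 1.13 CPM against 3.42 and 4.71 CPM. The mock libraries were nearly equal, and both JAZF1-SUZ12 libraries lay above them. Mean levels were 1.10 ± 0.036 CPM in mock against 4.06 ± 0.913 CPM with the fusion (SD, n = 2 each). On the log2 scale the difference was 1.86 ± 0.31 (standard error; edgeR, adjusted p = 0.000453).

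HOXC12 lies next to it (ENSG00000123407; 53954834 to 53958956) and had 20 and 44 counts in mock and 132 and 118 in JAZF1-SUZ12 libraries. These are 0.978 and 2.07 CPM against 7.65 and 4.83 CPM. The groups did not overlap, although the mock libraries lay further apart than for HOXC13. JAZF1-SUZ12 replicate 1 was highest for HOXC12 while replicate 2 was highest for HOXC13. The difference was 1.99 ± 0.33 on the log2 scale (standard error; edgeR, adjusted p = 0.000366). Without mock replicate 2 it was 2.62, and the call was kept in all 11 alternative fits.

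HOXC11 (ENSG00000123388; 53973126 to 53977643), a paralog of the HOXA11 and HOXD11 genes of limb and kidney development, had 2 and 0 counts in mock and 4 and 13 in JAZF1-SUZ12 libraries. Both JAZF1-SUZ12 libraries were above both mock libraries, at 0.232 and 0.532 CPM. The ratio of the pooled counts was 8.51 with a counting interval of 2.02 to 76.0, and without a filter on low counts the gene was not called (edgeR, adjusted p = 0.167). HOXC10 (ENSG00000180818; 53985065 to 53990279), a regulator of hindlimb motor neuron identity, had 9 and 10 counts in mock and 8 and 23 in JAZF1-SUZ12 libraries. JAZF1-SUZ12 replicate 1 was at 0.463 CPM, within the mock values of 0.440 and 0.470 CPM, and replicate 2 was at 0.942 CPM. The ratio of the pooled counts was 1.63 (0.894 to 3.06), and with a lower count minimum HOXC10 was tested and not called (edgeR, adjusted p = 0.538).

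HOXC9 (ENSG00000180806; 53994895 to 54003337), which takes part in thoracic motor neuron specification, had 151 and 224 counts in mock and 195 and 238 in JAZF1-SUZ12 libraries. These are 7.39 and 10.5 CPM against 11.3 and 9.74 CPM, so that mock replicate 2 lay between the JAZF1-SUZ12 libraries. The log2 difference of 0.20 ± 0.17 (standard error) was not called (edgeR, adjusted p = 0.436), and leaving out mock replicate 1 turned it to -0.038. HOXC9 gave 74.1% of the posterior HOXC counts in mock and 47.9% in JAZF1-SUZ12 libraries, while HOXC12 and HOXC13 went from 12.7% and 9.09% to 27.6% and 19.2%.

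HOXD13, whose mutations cause synpolydactyly, lies at the 5′ end of the HOXD cluster (ENSG00000128714; chromosome 2, 176092891 to 176095938). It had 0 and 3 counts in mock and 19 and 50 in JAZF1-SUZ12 libraries, or 0 and 0.141 CPM against 1.10 and 2.05 CPM. Both JAZF1-SUZ12 libraries were above both mock libraries, and replicate 2 was the higher of them. The ratio of the pooled counts was 23.0 with a counting interval of 7.56 to 114. The fitted log2 difference was 4.35 ± 0.79 (standard error; edgeR, adjusted p = 0.000827). Leaving out mock replicate 1 gave 3.42. With mock replicate 2 left out instead, the remaining mock library held 0 counts. The mean HOXD13 level in JAZF1-SUZ12 libraries was 10.7-fold that of a floor of 3 counts there. This value leaves out counting error and is no bound.

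HOXD9 (ENSG00000128709; 176122720 to 176124937), at the other end of the posterior HOXD genes, had 0 counts in both mock libraries and 16 and 26 in JAZF1-SUZ12 libraries. At 0.927 and 1.06 CPM the JAZF1-SUZ12 libraries were close to each other. Against a floor of 3 counts in each mock library HOXD9 was at least 6.92-fold higher (edgeR, adjusted p = 0.000616). Its fitted log2 fold change depends on the prior count and is no bound.

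The 3 genes between HOXD13 and HOXD9 were hardly detected. HOXD12 had 2 and 0 counts in each group, and HOXD11 and HOXD10 had 0 counts in mock and in JAZF1-SUZ12 replicate 1 and 1 count in JAZF1-SUZ12 replicate 2. No fold is given for them, since none exceeded the floor of 3 counts in any library. This floor lies between 0.123 and 0.174 CPM in these libraries. HOXD13 and HOXD9 were above that floor in both JAZF1-SUZ12 libraries. The observed levels of HOXD10, HOXD11 and HOXD12 stayed under it in every library. In JAZF1-SUZ12 libraries they thus did not reach the level of HOXD9 or HOXD13. In mock replicate 1, HOXD12 had 2 counts where HOXD9 and HOXD13 had 0. The counting interval of HOXD12 reached 0.419 CPM in JAZF1-SUZ12 replicate 1 and 0.353 CPM in mock replicate 1. A change within such intervals was not detectable.

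**Figure D2:**
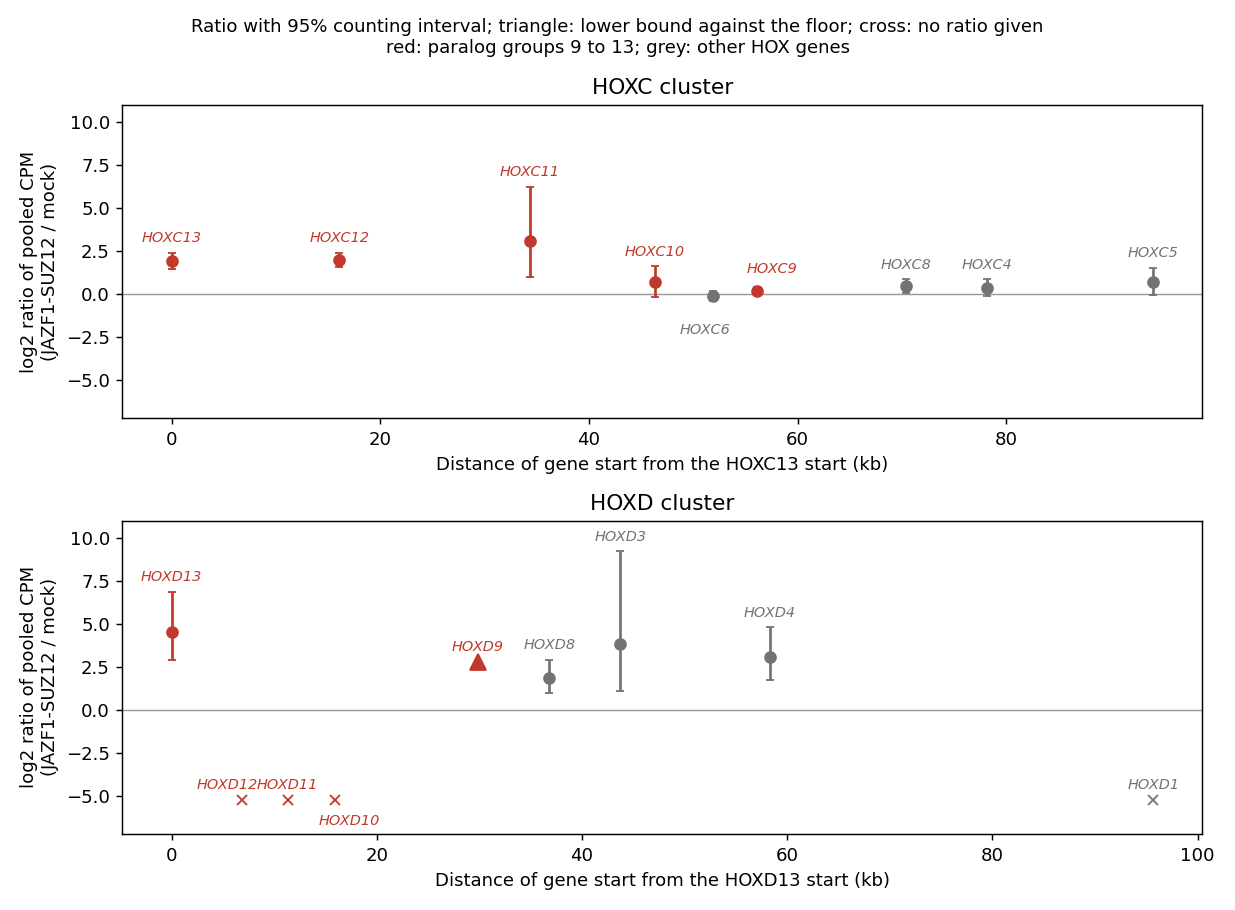
Log2 ratio of pooled CPM, JAZF1-SUZ12 over mock (y axis), against the distance of each gene's start from the start of the group 13 gene in kb (x axis), for HOXC (top) and HOXD (bottom). Bars are 95% counting intervals, the triangle is the lower bound for HOXD9 and crosses, whose height has no meaning, mark genes with no ratio; HOXC13 and HOXC12 lie apart from HOXC9, and HOXD13 and HOXD9 flank 3 genes with at most 2 counts in any library.

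Levels can be compared between genes only per length, here as CPM per kb of the longest annotated transcript. In mock, HOXC9 was highest at 5.91 ± 1.46, followed by HOXC12 at 0.456 ± 0.231, HOXC13 at 0.455 ± 0.0148 and HOXC10 at 0.235 ± 0.0107 CPM per kb (SD, n = 2 each). HOXC12 and HOXC13 did not differ beyond their spread, and the other 6 members were at or under the floor. In JAZF1-SUZ12 libraries the order was HOXC9 at 6.94 ± 0.724, HOXC12 at 1.87 ± 0.597, HOXC13 at 1.68 ± 0.377, HOXD13 at 0.703 ± 0.299, HOXD9 at 0.532 ± 0.052 and HOXC10 at 0.363 ± 0.175 CPM per kb (SD, n = 2 each). HOXC11 followed at 0.117 ± 0.065 CPM per kb (SD, n = 2), and HOXD10, HOXD11 and HOXD12 were at or under the floor. In that order HOXC12 and HOXC13 overlapped over the 2 libraries, as did HOXD13 and HOXD9, and the other neighbours down to HOXC11 did not.

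Reads shared between neighbouring genes touched some members. HOXC9 had a fractional count in mock replicate 1, where HOXC9 and HOXC6 added up to 246 whole counts, and these genes share 44 words of 31 bases in the GENCODE transcripts. HOXC10 had a fractional count in JAZF1-SUZ12 replicate 1, where HOXC10, HOXC5 and ENSG00000273049, a gene annotated across that part of the cluster, added up to 30.0 counts. HOXC12 and HOXD13 shared 0 words with any other gene, and their counts were whole in every library. HOXD9 shared 10 of 1840 words with the abundant HOXB9, whose level was 259 ± 5.77 CPM in mock against 243 ± 1.09 CPM with the fusion (SD, n = 2 each). HOXD9 was at 0 in both mock libraries. Whether reads of HOXB9 were counted for HOXD9 was not tested. HOXD10 and HOXD11 share 427 words, so the single count of each is uncertain.

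The authors' deposited table called the same 4 members, among 4.93% of its 15895 genes with an adjusted p that were called higher. The log2 fold changes in the authors' deposited table were 2.0 for HOXC12, 1.85 for HOXC13, 4.43 for HOXD13 and 6.79 for HOXD9. HOXC10 stood at -0.44, with 1.13 as the standard error, in the authors' deposited table (adjusted p = 0.916), opposite in sign to the counts. HOXC9 was at 0.45 in the authors' deposited table (adjusted p = 0.459).

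**Figure D3:**
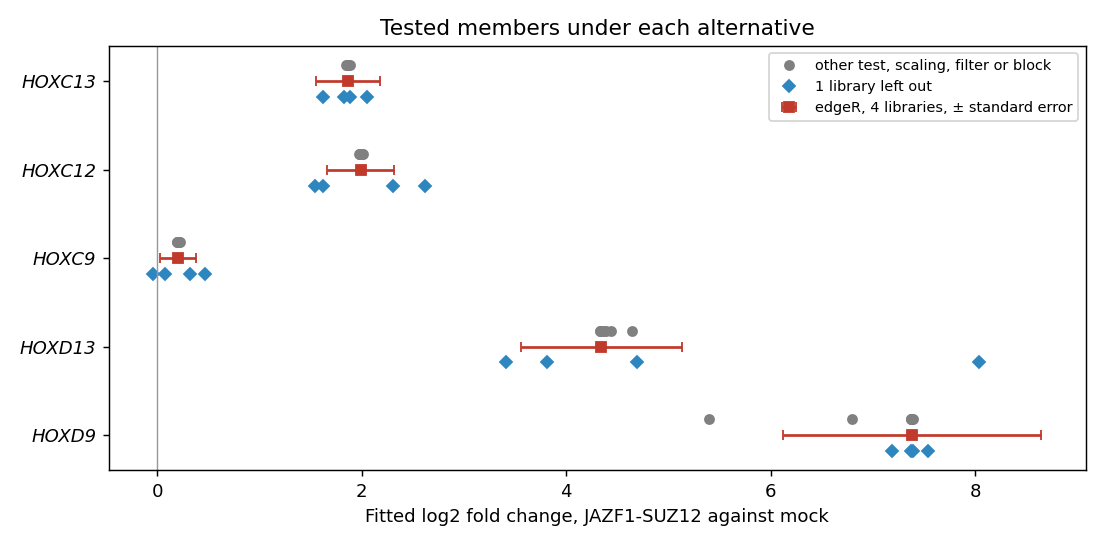
Fitted log2 fold change (x axis) of the 5 tested members (y axis) from edgeR on 4 libraries with its standard error (squares), under another test, scaling, filter or block (circles) and with 1 library left out (diamonds). HOXC12 and HOXC13 stay above 1.5 throughout, HOXC9 lies around 0, and the fitted values of HOXD9, and of HOXD13 without mock replicate 2, rest on mock libraries with 0 counts and are no bounds.

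Of the other 4 HOXC genes, all were tested and 0 were called (edgeR, with 0 at an unadjusted p under 0.05, and 0 called by DESeq2 or limma-voom), with log2 fold changes from -0.13 for HOXC6 to 0.73 for HOXC5. Of the other 4 HOXD genes, HOXD4 and HOXD8 were tested and called higher, and both passed the filter on low counts only through the JAZF1-SUZ12 libraries. HOXD4 had 1 and 4 counts in mock and 25 and 18 in JAZF1-SUZ12 libraries (log2 fold change 3.08, edgeR, adjusted p = 0.00738). HOXD8 had 6 and 7 counts in mock and 15 and 33 in JAZF1-SUZ12 libraries (log2 fold change 1.81, edgeR, adjusted p = 0.0296). HOXD4 lost its call without JAZF1-SUZ12 replicate 1 (adjusted p = 0.102) and without mock replicate 1 (adjusted p = 0.0695), and dropping mock replicate 2 raised its fold change to 4.27 (log2). HOXD8 lost its call with DESeq2 (adjusted p = 0.121) and without any 1 library (adjusted p from 0.0525 to 0.366). The authors' deposited table called neither (adjusted p = 0.0985 for HOXD4 and 0.282 for HOXD8). HOXD3 had 1 and 0 counts in mock and 8 and 6 in JAZF1-SUZ12 libraries, and HOXD1 had 0 in every library. The difference between the clusters was not tested.

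In paralog group 13, HOXB13, like HOXD13, passed the filter on low counts only through the JAZF1-SUZ12 libraries, so no count is read over the clusters. HOXB13 had 0 counts in both mock libraries and was at least 8.77-fold higher (edgeR, adjusted p = 0.000422), beside HOXC13 and HOXD13, while HOXA13 had at most 1 count in any library. In group 9, HOXD9 was called, HOXC9 and HOXB9 were not (edgeR, adjusted p = 0.436 and 0.0754), and HOXA9 had at most 3 counts. HOXB9 was called lower in 3 of 11 alternative fits. No gene of groups 10 and 11 had enough counts to be tested, and in group 12 HOXC12 rose and HOXD12 had at most 2 counts.

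Genes outside the clusters were examined up to 500 kb on either side. Beside HOXC, 18 of 23 genes were tested, and 5 were called higher and 1 lower. For comparison, the edgeR backgrounds were 13.3% (higher) and 11.4% (lower) of the 14750 genes. The 5 include PDE1B, which passed the filter only through the JAZF1-SUZ12 libraries, so they are not read as a share. The median log2 fold change of the 18 genes was 0.05, against 0.0032 over all genes tested. CALCOCO1, a coactivator and autophagy receptor and the nearest tested gene on the HOXC13 side, rose from 23.7 ± 2.07 to 37.8 ± 2.71 CPM (SD, n = 2 each; log2 fold change 0.66, edgeR, adjusted p = 4.06e-05). Among the untested genes beside HOXC, NPFF had 13 and 10 counts in mock and 0 and 3 in JAZF1-SUZ12 libraries. Its ratio of the pooled counts was 0.131 (0.0251 to 0.432). ATF7-NPFF had 0 counts in both mock libraries and 6 and 2 in JAZF1-SUZ12 libraries. It is annotated on the same strand from 53506688 to 53625979, across NPFF (53506690 to 53507638). Estimated counts can be divided between such genes, so neither is read alone, and such a division was not tested. The largest difference among the tested genes beside HOXC was that of PDE1B, a cyclic nucleotide phosphodiesterase (log2 fold change 1.73, edgeR, adjusted p = 0.0166). PDE1B had 25 and 6 counts in mock and 49 and 55 in JAZF1-SUZ12 libraries, and passed the filter on low counts only through the latter. PDE1B was at 1.01 without mock replicate 2, where the call was lost (adjusted p = 0.106), and leaving out mock replicate 1 gave 3.11. CBX5, a heterochromatin protein, NFE2, an erythroid transcription factor, and ITGA5, an integrin, were called higher at 0.25, 0.21 and 0.21 on the log2 scale (edgeR, adjusted p = 0.000551, 0.0034 and 0.00623). NFE2 and ITGA5 lost their calls without mock replicate 1 (adjusted p = 0.0625 and 0.0845). ZNF385A fell by 0.19 (log2; edgeR, adjusted p = 0.0263), a call lost without JAZF1-SUZ12 replicate 2 (adjusted p = 0.25) and without mock replicate 2 (adjusted p = 0.121). Beside HOXD, LNPK, which shapes the endoplasmic reticulum, was called at 0.21 on the log2 scale (edgeR, adjusted p = 0.0146), a call lost with DESeq2 (adjusted p = 0.0545), without JAZF1-SUZ12 replicate 2 (adjusted p = 0.084) and without mock replicate 2 (adjusted p = 0.139). MTX2, a mitochondrial outer membrane gene on the other side, was at -0.04 and was not called (edgeR, adjusted p = 0.617). EVX2, the homeobox gene next to HOXD13, had 0 and 1 counts in mock and 4 in each JAZF1-SUZ12 library. Of 9 noncoding genes of the clusters that were looked for, such as HOTAIR, 0 were found by symbol in the count table, so they were not analysed.

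**Figure D4:**
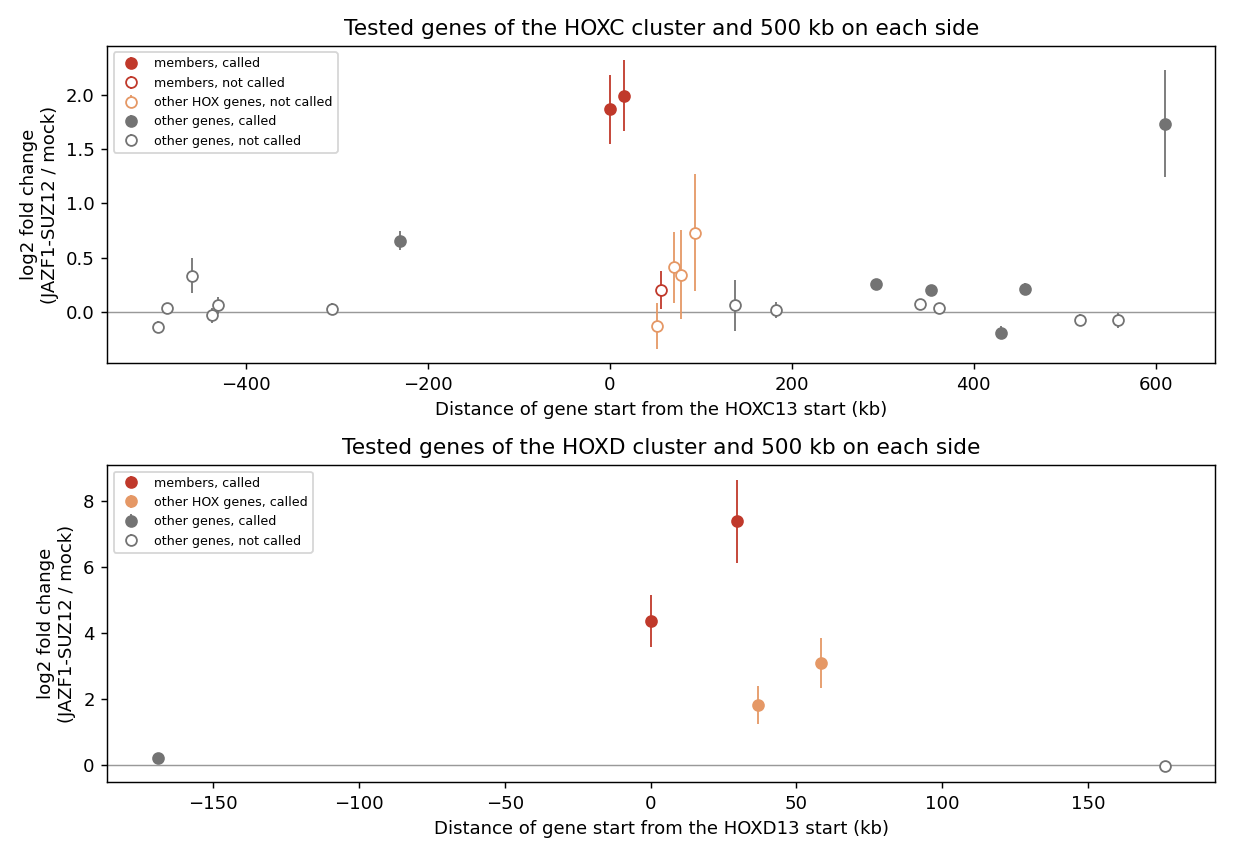
Log2 fold change with its standard error (y axis) against the distance from the group 13 gene in kb (x axis) for the tested genes of the HOXC (top) and HOXD (bottom) clusters and of 500 kb on each side; filled points were called. The called members reach 1.86 or more, PDE1B at the far right of the HOXC panel is at 1.73, CALCOCO1 is at 0.66, and LNPK and MTX2, which flank HOXD, are near 0.

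Of 8 TALE cofactor genes, all were tested, 2 rose and 1 fell, beside edgeR backgrounds of 13.3% of genes called higher and 11.4% lower. MEIS3 rose from 3.35 ± 0.0387 to 13.7 ± 1.21 CPM (SD, n = 2 each; log2 fold change 2.01, edgeR, adjusted p = 3.09e-07). PBX3 rose from 2.03 ± 0.178 to 5.66 ± 0.357 CPM (SD, n = 2 each; log2 fold change 1.45, edgeR, adjusted p = 0.000415). MEIS2 fell by 0.21 on the log2 scale (edgeR, adjusted p = 0.0332), a call lost with total counts (adjusted p = 0.0569), with DESeq2 (adjusted p = 0.158), without JAZF1-SUZ12 replicate 2 (adjusted p = 0.175) and without mock replicate 2 (adjusted p = 0.156). The median log2 fold change of the 8 genes was 0.09. The caudal genes, which act upstream of posterior HOX genes in the embryo, had 0 counts in mock. CDX2 had 7 in JAZF1-SUZ12 replicate 2, and CDX1 and CDX4 were at 0 in every library.

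Of the 6 PRC2 core genes, all were tested, 2 rose and 2 fell. Over all genes tested with edgeR, 13.3% were called higher and 11.4% lower. SUZ12, whose counts can include those of the fusion, rose as given above, and EZH1, a catalytic subunit, was called higher at 0.28 on the log2 scale (edgeR, adjusted p = 0.0159). The EZH1 call was lost with DESeq2 (adjusted p = 0.104), without JAZF1-SUZ12 replicate 2 (adjusted p = 0.206) and without mock replicate 1 (adjusted p = 0.0686). EED, a core subunit that binds H3K27me3, fell from 55.1 ± 1.29 to 42.6 ± 2.21 CPM (SD, n = 2 each; log2 fold change -0.40, edgeR, adjusted p = 0.000544). EZH2, the main catalytic subunit, fell by 0.17 on the log2 scale (edgeR, adjusted p = 0.0134), a call lost without mock replicate 1 (adjusted p = 0.0833). The median log2 fold change of the 6 genes was -0.11.

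The genes whose levels followed the summed level of the 10 members most closely, by the Euclidean distance of centred log2 CPM over the 4 libraries among 14122 genes, were MVB12B, TRGV2, LRRC46, ZNF483 and NIPAL1, with distances from 0.063 to 0.129. With only 4 libraries and so many genes compared, close matches are easily found, and a link of these genes to the members was not tested. TRGV2 was near the floor in mock, at 0.196 and 0.282 CPM. The summed level itself was mostly that of HOXC9, HOXC12 and HOXC13.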

How the data were processed

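RNA of 4 K562 libraries was measured. The authors deposited estimated counts per gene, not normalized. The submitters' processing notes name kallisto 0.46.2, fastp 0.20.1, DESeq2 1.30.1 and hg38, with no role or order, and strand use in counting is not given in the sources used here. The authors' deposited table holds a mean signal (normalized counts), a log2 fold change, its standard error, a score (the test statistic) and p-values, per the file headers.

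Estimated counts were rounded. Genes were kept with filterByExpr (minimum count 10), scaled by TMM and tested with edgeR 4.0.16 (R 4.3.3) in a model of group alone, with two-sided p-values adjusted over all 14750 genes. Standard errors were derived from the F statistic. CPM uses library totals. Counting intervals are exact (Poisson, or conditional binomial for ratios) at 95%, and the floor is 3 counts per library. Positions, lengths and exons are from GENCODE 29 on GRCh38. Alternatives used DESeq2 1.42.0, limma 3.58.1, other scalings and filters, the replicate block and leaving out each library. Same-numbered libraries did not deviate together (correlation -0.00073 over genes). On simulated counts for this comparison, edgeR recovered 85 of 100 genes changed 2-fold and 96 of 100 changed 4-fold among 14687 genes, with 12 false calls. The simulation gave all genes the same preset spread beyond counting error, so these rates need not hold for genes that vary more, such as members with few counts. The text names all 10 members, called genes of each gene list and up to 5 others, marker lists are given by counts and sums, with 3 stromal markers named after their values were seen, and 1 gene of the cofactor list is not reported here. The members and lists were chosen with earlier results of these data known.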

Additional observations from a re-analysis of the deposited data

How the results depend on the processing

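The number of members called, 4 higher and 0 lower, was the same in all 7 other tests, scalings, filters and block fits, at an adjusted p under 0.01 and in the 4 fits that each left out 1 library, in which the lone library of a group was assumed to vary like the other group. With the replicate number as a block, 4 members were again called higher and 0 lower, and since the numbers do not pair the libraries this is a check only. Sizes moved more than calls. Leaving out 1 library gave log2 fold changes from 1.54 to 2.62 for HOXC12 and from 1.62 to 2.05 for HOXC13. HOXC9 ranged from -0.038 (without mock replicate 1) to 0.47. The summed level of the 5 HOXC members, a difference of 0.84 on the log2 scale after TMM, ranged from 0.60 to 1.12, the latter without mock replicate 2. The alternatives for genes outside the posterior HOXC and HOXD set were added after the data were seen. With at most 50 counts per library for HOXD13 and 26 for HOXD9, depth limits the size of these increases, and for HOXC11 and HOXD10 to HOXD12 it limits the detection of small changes.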
